A study of Triticum aestivum with 6 samples.

Results

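Chromosome arms 4AL, 7AS and 7DS of bread wheat (Triticum aestivum) are known to carry the 3 homoeologous copies of Waxy, which encodes a granule-bound starch synthase, the enzyme of amylose synthesis. The arms were taken from the deposited count table by identifier prefix: 3121 identifiers named 4AL, 2516 named 7AS and 2499 named 7DS, together 8136 of 102602 entries, or 7.93%. RNA came from inferior grains, the later-set and usually less filled grains of a spike, of field-grown plants of the cultivar Xinong 538. The sample titles gave 3 libraries named SPD and 3 named CK and spelled out neither name. All 6 libraries carried the same entry for exogenous spermidine, a polyamine, and the same entry for the stage, which named days 8 and 16 after anthesis, so neither entry separated the groups. No promoter, transgene or other allele was given for either group.

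Bread wheat is a hexaploid with subgenomes A, B and D, and most genes have a copy on each of the 3 corresponding chromosomes. The copy of Waxy that belongs to subgenome B lies on 4AL, because a segment of 7BS moved to that arm in an ancient translocation. 4AL is therefore a mosaic, and 7BS is the arm that lost the segment. In the starchy endosperm of the filling grain, amylose is laid down by Waxy, while soluble starch synthases and branching enzymes build amylopectin from the ADP-glucose that ADP-glucose pyrophosphorylase supplies.

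The identifiers on these arms carry no gene names. None of the 8136 (0) matched the RefSeq gene table of assembly IWGSC CS RefSeq v2.1, so no function is given to any of them. The count table does hold an entry with the symbol WAXY, which that RefSeq table places on chromosome 7A. It names no arm and is not counted among the members. WAXY had 1740, 2140 and 1900 CPM (counts relative to library depth, scaled by TMM, the trimmed mean of M-values) in SPD replicates 1 to 3, against 2062, 2097 and 2014 CPM in CK replicates 1 to 3. The SPD and CK ranges overlapped. Its log2 fold change was -0.10 (95% interval -0.31 to 0.12, adjusted p = 0.997). Symbols for starch synthesis also stood for subunits of ADP-glucose pyrophosphorylase (AGP-L, AGP-S and AGA.1) and for a soluble starch synthase, WSSI-2. Of these 5 genes, WAXY included, 0 passed the test in either direction. RefSeq places AGP-L on chromosome 1D, AGP-S and WSSI-2 on 7B and AGA.1 on 5B, so of these entries WAXY alone lies on a chromosome of the 3 arms.

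On these arms 1 library, SPD replicate 3, lay away from the rest. Among the 815 identifiers of 4AL with a mean of at least 5 CPM, 18 lay more than 2-fold above and 31 more than 2-fold below the median of the other 5 libraries in SPD replicate 3. The corresponding numbers were 10 and 30 of 609 on 7AS, and 11 and 13 of 707 on 7DS. No other library had more than 3 above or 5 below on any of the arms. As shares, SPD replicate 3 had 2.21% above and 3.80% below on 4AL, 1.64% above and 4.93% below on 7AS, and 1.56% above and 1.84% below on 7DS, against 2.21% above and 2.70% below among all 28105 identifiers at that level. Totals per library ran from 10561224 counts in SPD replicate 3 to 13088727 in CK replicate 3. All 7 markers of starchy endosperm had counts, with a summed level of 13880 to 18629 CPM in SPD and 15073 to 15913 CPM in CK. Of the markers of embryo and aleurone, EM was at 0 in all 6 libraries and PER1, a peroxiredoxin gene, was present in each, at 96.3, 125.04 and 108.4 CPM in SPD replicates 1 to 3, against 149.0, 152.7 and 122.6 CPM in CK. The labels give 1 cultivar for all 6 libraries. Whether the grain material of SPD replicate 3 was of the same genotype, and whether some of it was also in CK replicate 3, was not tested; each SPD value below contains the first library and each CK value the second.

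4AL drew more counts than either group 7 arm, and its share was the most variable. It took 3.98%, 3.999% and 4.74% of all counts in SPD replicates 1 to 3, against 3.76%, 3.90% and 4.04% in CK replicates 1 to 3. SPD replicate 3 was the highest of the 6, and the other SPD libraries lay inside the range of CK. The mean was 4.24% ± 0.43 in SPD and 3.90% ± 0.14 in CK (SD, n = 3 each; two-sided exact permutation p = 0.3). With 3 libraries against 3 that test cannot give a p below 0.1. Without SPD replicate 3 the difference of the means was 0.086 percentage points, against 0.34 with it.

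7AS took 2.18%, 2.15% and 1.99% of the counts in SPD, against 2.14%, 2.10% and 2.16% in CK. Here SPD replicate 3 was the lowest library, the reverse of its place on 4AL. The means were 2.11% ± 0.10 in SPD and 2.13% ± 0.030 in CK (SD, n = 3 each; two-sided exact permutation p = 0.9). The difference of the means changed sign, to 0.030 percentage points, once SPD replicate 3 was left out. 7DS took 2.58%, 2.59% and 2.48% in SPD, against 2.56%, 2.52% and 2.57% in CK. SPD replicate 3 was again the lowest, and the means, 2.55% ± 0.061 in SPD and 2.55% ± 0.027 in CK, differed by 0.0029 percentage points (two-sided exact permutation p = 1), a difference that changed sign without SPD replicate 1, SPD replicate 2 or CK replicate 2, to -0.013, -0.017 and -0.012. For comparison, 7BS, the donor of the 4AL segment, took 1.42% ± 0.066 in SPD and 1.43% ± 0.042 in CK. SPD replicate 3 was the lowest library there too, at 1.35%, and also on 4AS, at 1.72%, so its low place was not particular to 7AS and 7DS.

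**Figure D1:**
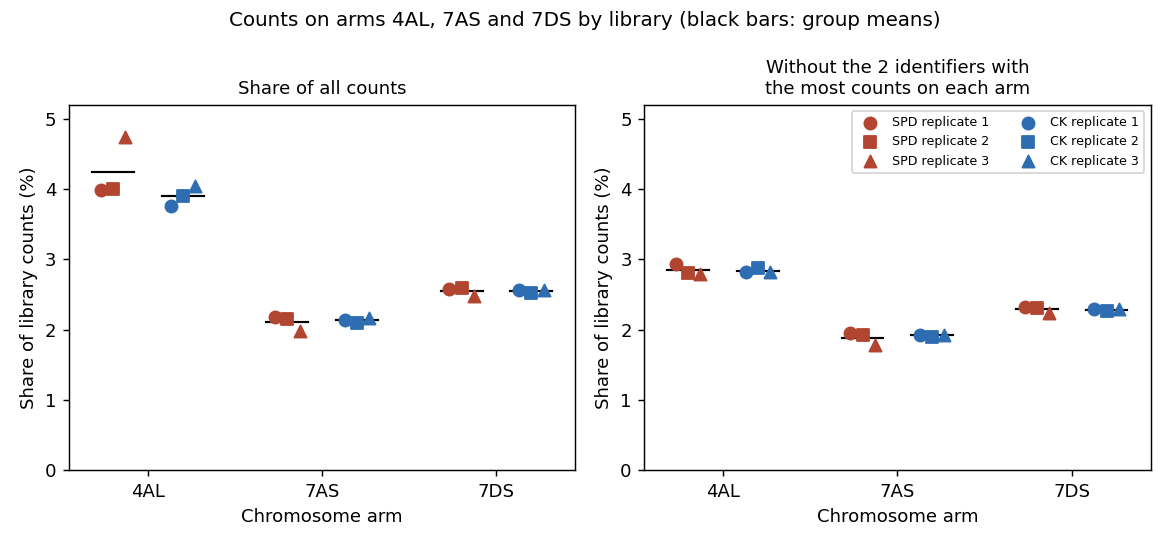
Share of the counts of each library (%, y axis) on arms 4AL, 7AS and 7DS (x axis), with all identifiers (left) and without the 2 identifiers with the most counts on each arm (right). Red symbols are SPD and blue symbols CK libraries, the shape gives the replicate and black bars are group means of 3 libraries; SPD replicate 3 stands at 4.74% on 4AL at left and at 2.80% at right, where the 6 libraries lie between 2.80% and 2.93%.

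The excess of 4AL in SPD replicate 3 lay in a pair of identifiers. Traes_4AL_4FF5B8837 had 7265, 8523 and 13560 CPM in SPD replicates 1 to 3, against 6620, 7291 and 8964 CPM in CK replicates 1 to 3. Traes_4AL_661613B77 had 3160, 3409 and 6499 CPM in SPD, against 2772, 3002 and 3429 CPM in CK. Both were far higher in SPD replicate 3 than in any other library, and in both the other SPD values lay within the range of CK. Together they held 41.0% of the counts of 4AL in SPD replicate 3, 26.4% and 29.7% in the other SPD libraries and 25.1% to 30.3% in CK. With both left out, 4AL took 2.93%, 2.81% and 2.80% of all counts in SPD, against 2.82%, 2.87% and 2.82% in CK. SPD replicate 3 was then the lowest library. The values of the groups overlapped, with means of 2.85% ± 0.072 in SPD and 2.84% ± 0.033 in CK (SD, n = 3 each; two-sided exact permutation p = 1). The log2 fold change of Traes_4AL_4FF5B8837 was 0.36 (SE 0.20), or 0.05 without SPD replicate 3. That of Traes_4AL_661613B77 was 0.51 (SE 0.23), or 0.10 without that library. Neither was called (edgeR, adjusted p = 0.997 for each). Of the 7 endosperm markers, 4 were highest in SPD replicate 3 and 1, AGP-L, was lowest there. The one with the most counts in that library was AVNLA, an avenin-like seed protein gene. It had 3103, 3134 and 6479 CPM in SPD replicates 1 to 3, against 3732, 3499 and 4136 CPM in CK. The others of those 4 stood out less. PINB had 3872 CPM in SPD replicate 3 and at most 3755 CPM in any other library. For PINA these values were 3631 and 3183 CPM, and for GLU-D1-2B 5.86 and 4.89 CPM. WAXY and AGP-S were neither highest nor lowest there. Any part of endosperm content in the 4AL values was not tested.

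The arms differed in how far a few identifiers dominated them. On 4AL the first identifier held 21.2% of the counts and the first 5 held 40.03%, and 22 identifiers made up 50% of the arm. On 7AS the first held 7.43% and the first 5 held 16.6%, with 66 identifiers for 50%. On 7DS these values were 7.63%, 15.8% and 79 identifiers. A large first identifier was not particular to 4AL. As a mean of the library shares it held 20.9% on 4AL, 17.9% on 4BL, 24.4% on 4DL, 24.5% on 1DS and 45.1% on 3DS. Counts were not scaled by transcript length, for which no value was used here, so these are shares of reads and not levels per transcript. Among the 100 identifiers with the most counts in the whole table were 4 of 4AL, 2 of 7AS and 2 of 7DS. Together these were 8 of the 100, near the 7.93% of all identifiers that the 3 arms hold. Traes_4AL_4FF5B8837 ranked 3 and Traes_4AL_661613B77 ranked 9.

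The next identifiers of 4AL varied less. Traes_4AL_F23B2CEFB had 2305, 1991 and 2411 CPM in SPD, against 1745, 2031 and 2111 CPM in CK. Traes_4AL_5BD269FF3 had 1468, 1224 and 1466 CPM in SPD, against 1311, 1389 and 1502 CPM in CK. Traes_4AL_C0725C38C had 525.3, 486.6 and 534.2 CPM in SPD, against 512.2, 489.0 and 487.5 CPM in CK. In all 3 identifiers the groups overlapped. SPD replicate 3 was the highest in the first and the last of them.

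On 7AS the identifier with the most counts was Traes_7AS_1B2A8C929, with 1693, 1560 and 1625 CPM in SPD, against 1508, 1440 and 1679 CPM in CK. Traes_7AS_712114E89 had 584.3, 687.5 and 547.4 CPM in SPD, against 644.1, 613.1 and 635.2 CPM in CK. Traes_7AS_25D8C69E9 had 413.5, 517.4 and 434.9 CPM in SPD, against 527.5, 488.2 and 465.6 CPM in CK. These groups overlapped. Traes_7AS_2742DDF6C was the exception in spread, with 534.4, 604.8 and 135.4 CPM in SPD, against 529.3, 524.7 and 500.6 CPM in CK. SPD replicate 3 was the lowest and the other SPD values were above all of CK. Its log2 fold change was -0.29 (SE 0.39) and became positive, at 0.14, without SPD replicate 3. Traes_7AS_29FF84C97 was the steadiest, with 382.5, 393.9 and 404.5 CPM in SPD, against 371.2, 379.0 and 410.1 CPM in CK.

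On 7DS Traes_7DS_529BAB150 had the most counts, with 1860, 2068 and 1891 CPM in SPD, against 1976, 1862 and 2088 CPM in CK. Traes_7DS_B30C70553 had 753.6, 769.0 and 596.1 CPM in SPD, against 703.6, 698.2 and 728.0 CPM in CK. Traes_7DS_E6C8AF743 had 483.1, 581.9 and 499.2 CPM in SPD, against 538.5, 505.4 and 576.2 CPM in CK. The groups overlapped in these. Traes_7DS_255D13EDA stood out, with 373.0, 402.7 and 836.8 CPM in SPD, against 318.6, 372.2 and 410.0 CPM in CK. SPD replicate 3 alone lay outside the range of CK, and the log2 fold change of 0.55 (SE 0.26) was 0.08 without it. Traes_7DS_4DE810271 had 372.6, 441.4 and 308.8 CPM in SPD, against 407.5, 376.6 and 468.3 CPM in CK. Of the 5 identifiers listed for each arm, 0 were called (edgeR, adjusted p = 0.997 or above).

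**Figure D2:**
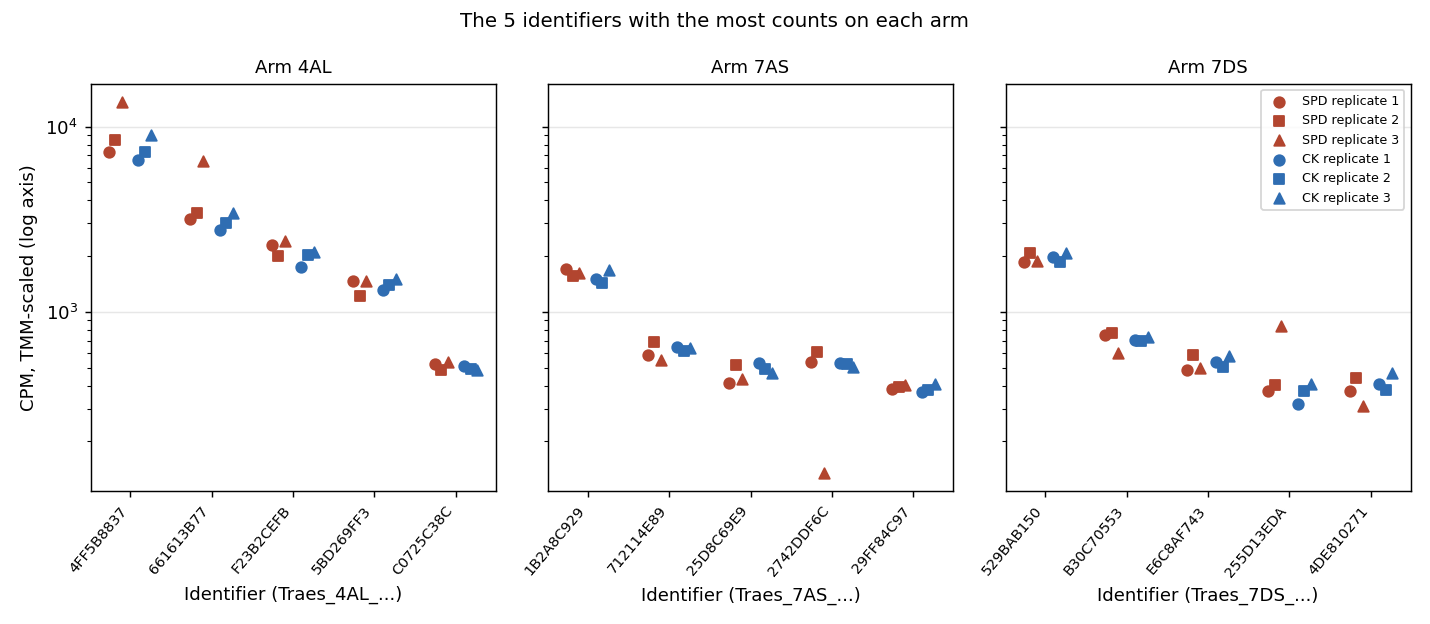
CPM scaled by TMM (y axis, log scale) of the 5 identifiers with the most counts on each arm (x axis), with SPD libraries in red at left and CK libraries in blue at right of each position; the shape gives the replicate. SPD replicate 3 is high in Traes_4AL_4FF5B8837 (13560 CPM), Traes_4AL_661613B77 (6499 CPM) and Traes_7DS_255D13EDA (836.8 CPM) and low in Traes_7AS_2742DDF6C (135.4 CPM).

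Set against the number of identifiers, 4AL had the most counts of the 3 arms. Divided by all identifiers of an arm, the level was 13.0 ± 1.10 CPM on 4AL, 8.43 ± 0.28 on 7AS and 10.2 ± 0.17 on 7DS (mean ± SD, 6 libraries, scaled by library total). Among 40 arms and chromosome 3B, which the identifiers do not divide into arms, 4AL ranked 3, 7DS 15 and 7AS 31. The other long arms of group 4 stood next to 4AL, with 4BL at rank 2 (13.7 CPM) and 4DL at rank 4 (12.6 CPM). 4AL lay above 7AS by 4.62 ± 1.34 CPM and above 7DS by 2.84 ± 1.22, each in 6 of 6 libraries, and 7AS below 7DS by 1.78 ± 0.13, also in 6 of 6. Each difference had a two-sided exact sign-flip permutation p of 0.031, the smallest that 6 libraries allow, and the same value after adjustment over the 3 pairs. The lead of 4AL over 7DS belonged to its most abundant identifiers: without the 100 genes with the most counts in the table, the level was 8.003 CPM per identifier on 4AL and 9.16 on 7DS, a difference of -1.15 ± 0.13 in 6 of 6 libraries. 4AL then led 7AS by 0.44 ± 0.18 CPM. The 6 libraries share 1 annotation, so these differences include how each arm was split into gene models. The p of such a comparison of arms measures only whether the order repeats over libraries.

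Detection ran in another order. With at least 1 count as the limit, 58.5% ± 1.2 of the identifiers of 4AL, 60.5% ± 1.65 of 7AS and 62.4% ± 1.21 of 7DS were detected in a library (mean ± SD, 6 libraries). 7DS was highest and 4AL lowest in 6 of 6 libraries (two-sided exact sign-flip permutation p = 0.031 for each of the 3 pairs, adjusted value the same). With at least 10 counts as the limit the difference of 4AL from 7AS shrank to -0.31 percentage points (exact sign-flip permutation, adjusted p = 0.219), while 7DS stayed above both. Among the same 41 units 7DS ranked 26, 7AS 34 and 4AL 37. 7BS had 65.1% detected and ranked 16. Over all 6 libraries, 68.9% of the identifiers of 4AL, 70.7% of 7AS and 71.7% of 7DS had at least 1 count, against 71.1% of the whole table. A mean of at least 10 CPM was reached by 544 identifiers (17.4%) on 4AL, 412 (16.4%) on 7AS and 473 (18.9%) on 7DS, against 18.003% of the table. A mean of at least 100 CPM was reached by 41, 31 and 40 identifiers of 4AL, 7AS and 7DS. The share above 1000 CPM, 0.128% on 4AL with 4 identifiers, compares with 0.0448% of the table.

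**Figure D3:**
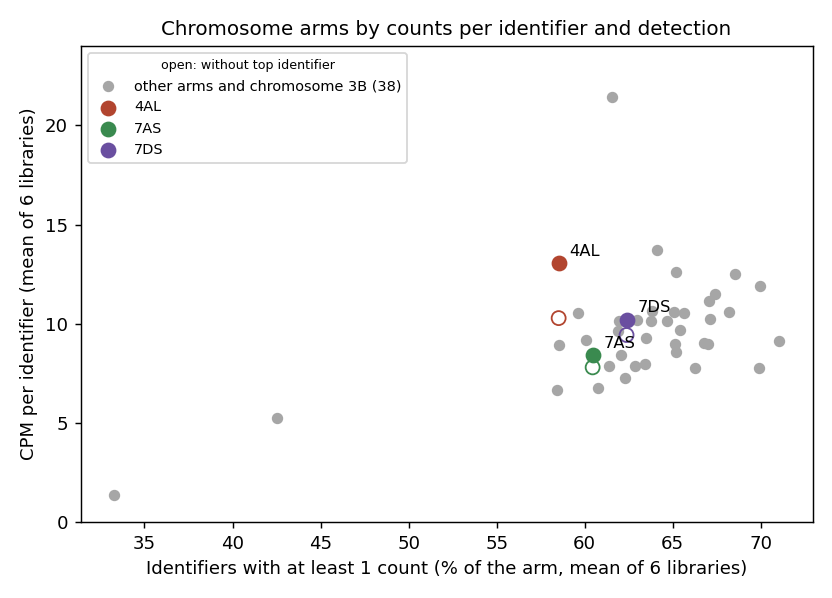
Counts per identifier (CPM, y axis) against the share of identifiers with at least 1 count (%, x axis) for 40 chromosome arms and the undivided chromosome 3B, each a mean of 6 libraries; grey points are the other arms and 3B, and open circles show 4AL, 7AS and 7DS without their most abundant identifier. 4AL combines 13.0 CPM per identifier with 58.5% detected, and its open circle lies at 10.3 CPM.

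The groups did not separate by detection. On 4AL 56.4%, 58.8% and 59.4% of identifiers were detected in SPD replicates 1 to 3, against 58.6%, 58.1% and 59.9% in CK. On 7AS the values were 58.4%, 60.3% and 61.7% in SPD, against 59.9%, 59.4% and 63.0% in CK. On 7DS they were 60.3%, 62.5% and 62.9% in SPD, against 62.4%, 62.1% and 64.1% in CK. SPD replicate 1 was the lowest and CK replicate 3 the highest library on all 3 arms, and the groups overlapped. The two-sided exact permutation p was 0.7, 0.7 and 0.6 for 4AL, 7AS and 7DS. CK replicate 3 was also the deepest library. At the depth of the shallowest library, SPD replicate 3, the expected shares on 7DS were 60.1%, 62.0% and 62.9% in SPD, against 62.1%, 62.0% and 63.4% in CK. On 7AS CK replicate 3 also stayed the highest at that depth, with 62.2% against 61.7% in SPD replicate 3. On 4AL the order changed, with 59.4% in SPD replicate 3 and 59.2% in CK replicate 3. Without SPD replicate 1 the difference of the means turned positive, at 0.29 percentage points on 4AL and 0.25 on 7AS, and without CK replicate 3 it was 0.51 on 7AS.

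No identifier of these arms differed between SPD and CK after adjustment for all genes tested. The filter on low counts kept 1426 identifiers of 4AL, 1158 of 7AS and 1259 of 7DS, together 3843 of the 8136. The quasi-likelihood test of edgeR called 0 of them, where it called 0 of 50136 genes over the whole table, or 0%. The Wald test of DESeq2 called 0 on these arms and 3 of 72846 genes over the whole table. Without adjustment, 29 identifiers of 4AL lay below 0.05 on the higher and 24 on the lower side, together 3.72% of those tested. These numbers were 20 and 17 on 7AS (3.20%) and 24 and 27 on 7DS (4.05%). Over all genes 1.9% lay below 0.05 on the higher and 1.69% on the lower side, 3.59% in all, so the arms were near the background. Leaving out 1 library moved these counts: without SPD replicate 2 they were 125 on 4AL, 89 on 7AS and 98 on 7DS (7.76% of all genes), and without CK replicate 1 they were 24, 24 and 22 (2.08% of all genes). Without SPD replicate 3 the count on 7AS was 59, or 4.85% of those tested, beside 4.84% of all genes.

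The SPD libraries were all higher than each CK library in 74 identifiers of 4AL, 57 of 7AS and 57 of 7DS, where 4.73% of all genes tested did so. They were all lower in 73, 61 and 51, where 4.76% of all genes did so. Either way, 10.3% of 4AL, 10.2% of 7AS and 8.58% of 7DS did not overlap, against 9.48% of all genes. The median log2 fold change was 0.019 on 4AL, -0.0027 on 7AS and 0.015 on 7DS, beside 0.0048 over all genes tested. These medians moved when a library was left out: that of 4AL was 0.0079 without SPD replicate 3 and that of 7DS 0.00097 without SPD replicate 1. That of 7AS turned positive without SPD replicate 1 (0.0011), SPD replicate 3 (0.0027) or CK replicate 3 (0.0059). The filter was redone in each such fit, so the identifiers tested changed as well (1479 on 4AL without SPD replicate 3). On 4AL all 6 such fits gave a lower median, from 0.0079 to 0.016, so the move is not particular to 1 library. The middle 50% of values ran from -0.18 to 0.21 on 4AL, from -0.19 to 0.21 on 7AS and from -0.16 to 0.20 on 7DS. Spread within groups was wider in SPD on all 3 arms, as it was over all genes tested. The median SD of log2(CPM + 0.5) was 0.30 in SPD and 0.24 in CK on 4AL, 0.32 in SPD and 0.25 in CK on 7AS, and 0.29 in SPD and 0.24 in CK on 7DS. Over all genes tested it was 0.31 in SPD and 0.24 in CK. Without SPD replicate 3 the SPD value was 0.22 on 4AL, 0.23 on 7AS, 0.22 on 7DS and 0.22 over all genes. That SD rests on fewer libraries than the SD of CK, so the sizes are not directly comparable.

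**Figure D4:**
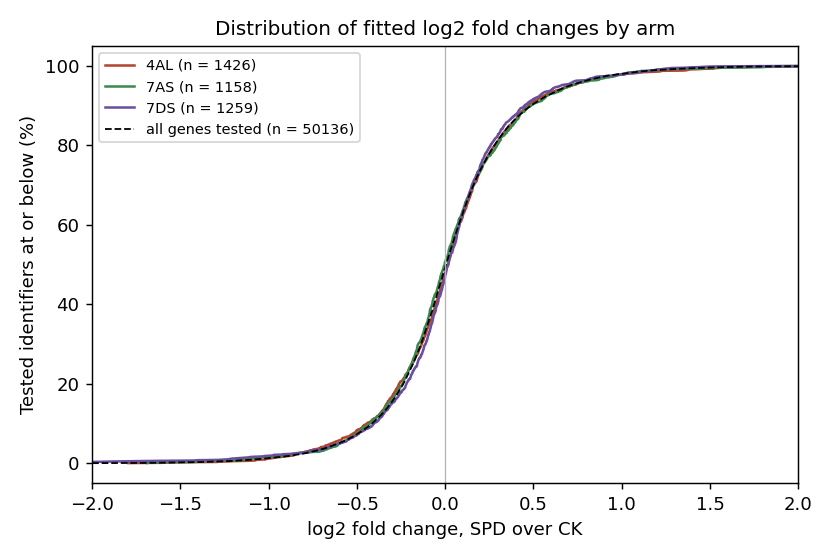
Cumulative share of tested identifiers (%, y axis) by fitted log2 fold change of SPD over CK (x axis) for 4AL (1426), 7AS (1158), 7DS (1259) and all 50136 genes tested (dashed). The 4 curves lie on each other, with medians of 0.019, -0.0027, 0.015 and 0.0048.

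The lowest unadjusted p-values on the higher side belonged to Traes_7AS_C05C7D06B1 and Traes_7DS_226F2DC27. Traes_7AS_C05C7D06B1 had 27.9, 17.9 and 42.6 CPM in SPD replicates 1 to 3, against 11.5, 15.04 and 17.0 CPM in CK replicates 1 to 3. Traes_7DS_226F2DC27 had 31.3, 20.1 and 47.6 CPM in SPD, against 12.3, 16.7 and 19.8 CPM in CK. Each SPD value lay above each CK value in both, and both put the 6 libraries in the same order, from SPD replicate 3 at the top to CK replicate 1. The log2 fold change was 1.02 in both (SE 0.28 on 7AS and 0.29 on 7DS; edgeR, adjusted p = 0.997), and 0.66 in both without SPD replicate 3. Neither was called. The 6 markers of green tissue, such as the pericarp, also had their highest sums in SPD replicates 3 and 1. The sums were 618.9, 440.7 and 904.8 CPM in SPD replicates 1 to 3, against 446.9, 553.8 and 433.4 CPM in CK. All 6 had counts, and their part in these identifiers was not tested.

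On the lower side, Traes_4AL_2DC24CE38 had 18.6, 23.8 and 18.5 CPM in SPD, against 31.8, 29.7 and 31.4 CPM in CK. Traes_7DS_FE7F6F8DB had 14.5, 16.9 and 10.9 CPM in SPD, against 27.4, 19.6 and 24.996 CPM in CK. No value of SPD reached the lowest CK value in either. The log2 fold changes were -0.61 (SE 0.15) for Traes_4AL_2DC24CE38 and -0.77 (SE 0.21) for Traes_7DS_FE7F6F8DB (edgeR, adjusted p = 0.997), and neither was called. Leaving out each library in turn gave -0.75 to -0.55 for Traes_4AL_2DC24CE38 and -0.92 to -0.61 for Traes_7DS_FE7F6F8DB. Both kept a negative value in each of these fits.

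Some identifiers of 4AL and 7AS, and 0 of 7DS, were present in SPD replicate 3 almost alone or missing from it almost alone. They were picked by their values, so the counts are a description. Nearly exclusive meant at least 5 CPM in 1 library, at least 4 times any other library and a median of at most 0.2 CPM in the other 5. By this rule SPD replicate 3 had 7 identifiers on 4AL, 5 on 7AS and 0 on 7DS. Nearly absent meant at most 0.2 CPM in 1 library and at least 2.5 CPM in each of the other 5. SPD replicate 3 had 3 such identifiers on 4AL, 4 on 7AS and 0 on 7DS. In each of the other 5 libraries both counts were 0 on all 3 arms. Over the whole table SPD replicate 3 had 74 nearly exclusive and 104 nearly absent identifiers, or 0.101% and 0.143% of those with a count. The shares were 0.326% and 0.140% on 4AL and 0.281% and 0.225% on 7AS. Among the 41 units, 7AS ranked 7 and 4AL ranked 9 by both sets together, so the pattern was not particular to them. 2BL ranked 1, with 8 nearly exclusive and 16 nearly absent identifiers. 7BL and 7DL each had 7 and 2, and 7BS had 2 and 2. Other arms, such as 4AS and 6DL, had 0 of each, as 7DS did.

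The clearest case on 4AL, and the identifier with the largest SD on that arm, was Traes_4AL_2F479480C. It had 0, 1 and 473 counts in SPD replicates 1 to 3, against 3, 1 and 47 counts in CK replicates 1 to 3. SPD replicate 3 was highest by far, and CK replicate 3 was the only other library with more than 3 counts. Traes_7AS_881142077 had 1, 2 and 216 counts in SPD, against 0, 1 and 15 in CK. Traes_7AS_26F5EF091 had 0, 0 and 139 counts in SPD, against 0, 1 and 13 in CK. Traes_7AS_1DF12C790 had 0, 0 and 124 counts in SPD, against 0, 0 and 11 in CK. CK replicate 3 was second in all 4 identifiers. Traes_4AL_467EEC659, with 67 counts in SPD replicate 3 and 0 in each of the other 5 libraries, was the 1 exception without a count in CK replicate 3.

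Summed over the 12 nearly exclusive identifiers, the level was 0.98, 2.23 and 144 CPM in SPD replicates 1 to 3, against 0.48, 0.45 and 9.70 CPM in CK replicates 1 to 3 (scaled by library total). CK replicate 3 thus stood at 6.75% of SPD replicate 3, and the highest of the remaining libraries at 1.55%. CK replicate 3 held a count for 11 of the 12 and was the second highest library for 9 of them. The 74 such identifiers of the whole table gave 7.75% for CK replicate 3 and at most 0.452% for any remaining library. No cause of this pattern was tested. Nearly absent identifiers behaved in the opposite way: Traes_7AS_B54CE2C73, with the largest SD on 7AS, had 36.7, 25.9 and 0.098 CPM in SPD, against 25.8, 30.2 and 25.2 CPM in CK. Traes_7AS_E172ED7BE had 11.99, 18.7 and 0 CPM in SPD, against 18.01, 19.8 and 19.1 CPM in CK. Summed over the 7 nearly absent identifiers of the arms, the level was 94.4, 88.7 and 0.19 CPM in SPD, against 84.9, 91.1 and 84.3 CPM in CK. Over the 104 such identifiers of the whole table it was 1486, 1506 and 3.69 CPM in SPD, against 1537, 1496 and 1225 CPM in CK. CK replicate 3 was the lowest library after SPD replicate 3 in both sums, on these arms by little. On 7DS the identifier with the largest SD was Traes_7DS_C664804C5, with 2.43, 9.60 and 1.08 CPM in SPD, against 7.57, 14.3 and 7.95 CPM in CK. It was low in SPD replicates 1 and 3 and present in all 6 libraries.

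**Figure D5:**
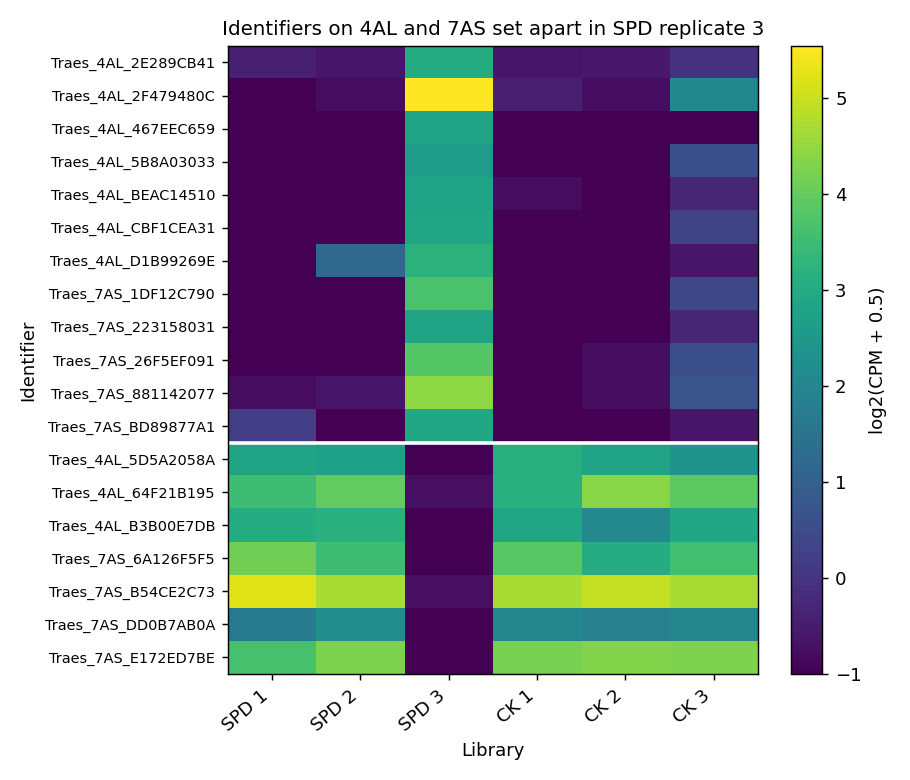
Level as log2(CPM + 0.5) (colour) of the 12 identifiers nearly exclusive to SPD replicate 3 (above the white line) and the 7 nearly absent from it (below), with 1 row per identifier and 1 column per library, SPD at left and CK at right. The third column differs from the others in every row by construction, and the CK replicate 3 column is the second brightest in 9 of the 12 upper rows.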

How the data were processed

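The authors deposited raw counts per gene identifier, whole numbers with 1 column for each of the 6 libraries. Per the submitters' processing notes, reads were handled with the aligner HISAT2. Its version, the counting program, the genome build, the annotation and the strand setting were not given in the sources used here. Near-identical copies on the 3 arms can exchange reads, which leaves single identifiers uncertain.

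Arms were read from the identifiers. Groups and replicate numbers came from the titles, and no label ties a library to its own plants; p-values measure only the spread among libraries, possibly a technical one. No pair agreed within sampling noise: chi-square per degree of freedom was 13.3 to 16.4 for pairs with SPD replicate 3 and 4.12 to 7.02 for the others. The closest pair, SPD replicate 2 with CK replicate 3, crossed the groups.

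All genes were fitted in R 4.3.3 with edgeR 4.0.16 (filterByExpr defaults, TMM, quasi-likelihood test, two-sided), with adjustment by Benjamini and Hochberg over 50136 genes and a threshold of 0.05. CPM of single identifiers are scaled by TMM, and shares and sums of arms by library total. Shares were compared by exact permutation over libraries, and arms by exact sign-flip within libraries (Python 3.11.15). The test was run on simulated counts with a common dispersion for all genes and no library set apart. That setting is simpler than these data, so it does not show how the test performs with SPD replicate 3. Alternatives were other scalings, filters, DESeq2 1.42.0, a replicate block and leaving out each library, with the filter redone.

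The members and lists were chosen with earlier results of these data known. Identifiers named are the 5 with the most counts and the 1 with the largest SD (mean of at least 5 CPM) on each arm, and the 2 lowest p-values in each direction. Those nearly exclusive to or absent from a library, and AVNLA, were singled out after their values were seen.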

Additional observations from a re-analysis of the deposited data

Results flagged for a closer look

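Values of the 6 libraries were examined for 34 quantities, and in 9 of them 1 library lay far from the rest: its gap to the nearest library, divided by the whole range, passed the 95% critical value of 0.625 for 6 libraries. Chance gives this in about 5% of sets that were not chosen for their spread. That rate does not hold here for Traes_4AL_2F479480C and Traes_7AS_B54CE2C73, which were named for having the largest SD on their arms. In all 9 the library was SPD replicate 3, and the 9 overlap, since the arm values contain the identifiers. On the scale of arms these were the share of counts on 4AL (4.74%), the difference of 4AL from 7AS in CPM per identifier (7.29) and that of 4AL from 7DS (5.26). On the high side among identifiers they were Traes_4AL_4FF5B8837 (13560 CPM), Traes_4AL_661613B77 (6499 CPM), Traes_4AL_2F479480C (46.2 CPM) and Traes_7DS_255D13EDA (836.8 CPM). On the low side they were Traes_7AS_2742DDF6C (135.4 CPM) and Traes_7AS_B54CE2C73 (0.098 CPM).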

How the results depend on the processing

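The count of called identifiers on the 3 arms was 0 under each alternative run, including the Wald test of DESeq2 (59, 44 and 45 at an unadjusted p under 0.05 on 4AL, 7AS and 7DS, or 2.75%, 2.48% and 2.51%, beside 2.60% of all genes). Over the whole table DESeq2 called 3 genes and edgeR without CK replicate 3 called 1. With no filter beyond 1 count, 95 identifiers of 4AL (4.42%), 74 of 7AS (4.16%) and 64 of 7DS (3.57%) lay below an unadjusted 0.05, beside 3.91% of all genes. Leaving out each library in turn gave counts that ran from 24 to 125 on 4AL, 24 to 89 on 7AS and 22 to 98 on 7DS. Median log2 fold changes then ran from 0.00097 to 0.020 on 7DS. Differences of SPD from CK in the share of counts ran from 0.086 to 0.47 percentage points on 4AL, -0.067 to 0.030 on 7AS and -0.017 to 0.038 on 7DS, and in the share detected from -1.20 to 0.29 on 4AL, -1.38 to 0.51 on 7AS and -1.43 to -0.17 on 7DS. Without the 100 most abundant genes, the difference in the share of counts was 0.043 percentage points on 7DS, 0.018 on 4AL and -0.014 on 7AS. The two-sided exact permutation p was 0.1 on 7DS, the smallest that 3 libraries against 3 allow, 0.5 on 4AL and 0.8 on 7AS. None of the differences of SPD from CK could pass the threshold at this number of libraries.

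Without the 100 most abundant genes, 4AL minus 7DS in CPM per identifier reversed to -1.15. With at least 10 counts as the limit, 4AL minus 7AS in share detected was -0.31 (adjusted p = 0.219). With 5 libraries the sign-flip test cannot give a p below 0.0625, so each pair of arms lost its call. The differences then ran from 4.08 to 4.83 (4AL minus 7AS), 2.35 to 3.04 (4AL minus 7DS) and -1.80 to -1.73 (7AS minus 7DS) CPM per identifier, and from -2.05 to -1.69, -3.93 to -3.78 and -2.10 to -1.77 percentage points detected.

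Deviations of libraries with the same number correlated at 0.015, -0.067 and -0.038, and only for number 1 was the best partner the library of that number. With the replicate number as a block, 0 identifiers were called, 39, 28 and 41 lay below an unadjusted 0.05 on 4AL, 7AS and 7DS (2.73%, 2.42% and 3.26%, beside 2.88% of all genes), and medians were 0.0051, -0.0069 and 0.012. For the 4AL share of counts the pairing gave 0.34 percentage points (exact sign-flip permutation p = 0.25, the smallest that 3 pairs allow). The block changed no call. Depth limits identifiers of few counts, of which 4293 were not tested.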
